A study of Arabidopsis thaliana with 6 samples.

Results

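The genes described here are 10 regulators of seed maturation in Arabidopsis thaliana, taken by locus identifier from a table in which 32389 genes had counts. The activators were 6 transcription factors: ABI3 (AT3G24650), FUS3 (AT3G26790), LEC1 (AT1G21970), LEC2 (AT1G28300), L1L (AT5G47670) and ABI4 (AT2G40220). The repressors were 4 genes that keep this programme off in seedlings: VAL1 (AT2G30470), VAL2 (AT4G32010), VAL3 (AT4G21550) and PKL (AT2G25170). All 10 were found in the table and all 10 passed the filter on low counts.

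Polyadenylated RNA was sequenced from germinating seeds of 2 genotypes in the Columbia background, wild-type Col-0 and scl30a-1, with 3 libraries of each. SCL30a encodes an SR protein, a member of a family of splicing factors. Seeds of both genotypes, 50 mg per sample, were stratified for 3 days, then kept at 21 °C in continuous white light on MS medium and collected 18 h after stratification. The samples are described as biological triplicates. The mutant is represented by 1 allele, and the nature of that allele is not given in the sources used here. Libraries are called a, b and c after the letters in the table's column names, which do not show which numbered sample each column holds. Total counts were between 70687361 and 85605647 per library, so that 3 counts, used as the floor, were worth 0.035 to 0.0424 CPM, a count scaled to the library's total. SCL30A (AT3G13570) itself stood at 96.1 ± 0.92 CPM in Col-0 and at 5.74 ± 0.156 CPM in the mutant (mean ± SD, n = 3). Its counts of 6890, 7290 and 8425 in wild type against 478, 440 and 458 in the mutant matched the genotype labels.

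LEC1, LEC2, FUS3 and ABI3 are often called the LAFL regulators. ABI3, FUS3 and LEC2 carry a B3 DNA-binding domain and bind the RY element of storage protein and oleosin promoters, while LEC1 and its closest relative L1L are NF-YB subunits of the CCAAT-binding factor NF-Y. ABI4, an AP2-type factor of abscisic acid and sugar responses, was found, like ABI3, as an abscisic acid insensitive germination mutant. The VAL proteins also carry B3 domains, bind RY elements and recruit histone deacetylases and Polycomb complexes, and PKL is a CHD-type chromatin remodeller. This repression closes the embryonic programme as seeds germinate.

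The 250 bases before each annotated gene start were read from the RefSeq annotation of TAIR10.1 and searched on both strands for the RY core CATGCA and for the core of the abscisic acid response element, ACGTG. The latter also lies inside the G-box CACGTG. Of 26711 protein-coding genes, 8.51% held the RY core and 23.1% the ABRE core in this window. Among the activators only FUS3 held an RY core, and among the repressors only VAL1 did. Neither group had a member with the ABRE core. Matches in 6 letters describe the sequence and do not show binding. The windows of the pair are printed below because they are the only members with the element, followed by 4 known target genes of the activators that show how the elements are arranged, EM6 being one with no RY core. Each runs 5′ to 3′ on the gene's strand and ends at the base before the gene, with RY and ABRE cores in capitals. They lie at chr3:9856213-9856462 (FUS3, minus strand), chr2:12985278-12985527 (VAL1, minus), chr4:13607079-13607328 (SESA1, plus), chr4:12900180-12900429 (OLEO1, plus), chr5:21943733-21943982 (HSFA9, plus) and chr2:16780369-16780618 (EM6, minus).
FUS3: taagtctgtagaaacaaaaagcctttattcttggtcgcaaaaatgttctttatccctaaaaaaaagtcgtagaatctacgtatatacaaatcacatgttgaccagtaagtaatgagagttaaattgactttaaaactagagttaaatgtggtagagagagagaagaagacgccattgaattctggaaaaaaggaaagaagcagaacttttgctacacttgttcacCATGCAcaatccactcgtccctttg
VAL1: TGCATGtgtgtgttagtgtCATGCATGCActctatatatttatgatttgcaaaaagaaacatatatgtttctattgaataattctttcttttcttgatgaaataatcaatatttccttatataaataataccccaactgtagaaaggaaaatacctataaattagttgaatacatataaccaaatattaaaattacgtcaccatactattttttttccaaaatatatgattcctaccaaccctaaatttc
SESA1: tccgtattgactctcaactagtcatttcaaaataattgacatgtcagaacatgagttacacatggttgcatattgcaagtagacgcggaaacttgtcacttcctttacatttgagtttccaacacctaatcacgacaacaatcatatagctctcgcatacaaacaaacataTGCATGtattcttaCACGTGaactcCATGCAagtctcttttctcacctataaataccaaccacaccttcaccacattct
OLEO1: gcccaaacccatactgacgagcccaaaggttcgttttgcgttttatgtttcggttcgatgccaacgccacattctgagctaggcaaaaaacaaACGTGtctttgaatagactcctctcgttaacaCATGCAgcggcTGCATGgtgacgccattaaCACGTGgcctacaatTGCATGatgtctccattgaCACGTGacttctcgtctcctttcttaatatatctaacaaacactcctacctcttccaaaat
HSFA9: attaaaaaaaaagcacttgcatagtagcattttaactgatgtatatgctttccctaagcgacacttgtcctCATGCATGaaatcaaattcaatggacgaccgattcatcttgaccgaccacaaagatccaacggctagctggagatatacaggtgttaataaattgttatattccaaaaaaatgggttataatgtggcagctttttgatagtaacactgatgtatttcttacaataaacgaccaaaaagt
EM6: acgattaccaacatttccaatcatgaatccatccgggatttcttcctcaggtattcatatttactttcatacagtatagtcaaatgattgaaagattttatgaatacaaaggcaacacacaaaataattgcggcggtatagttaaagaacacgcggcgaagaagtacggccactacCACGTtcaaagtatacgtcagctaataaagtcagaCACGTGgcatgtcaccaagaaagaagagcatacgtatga
The single RY core of FUS3 starts 25 bases before the gene. The RY cores of VAL1 form 2 runs, the longer of 10 bases, starting 250 and 231 bases before it. SESA1, which encodes a 2S albumin, has RY cores starting 79 and 54 bases before the gene with a G-box between them.

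Among the 6 activators, 3 were called at an adjusted p under 0.05 by edgeR's quasi-likelihood test over the whole table, FUS3 higher and LEC1 and LEC2 lower in scl30a-1. None of the 4 repressors was called; the count was also 0 at an unadjusted p under 0.05, with DESeq2 and with limma-voom. Of the 18736 genes tested, 7806 were called, 41.7%, with 21.9% higher and 19.7% lower. With such a background, 3 of 6 and 0 of 4 are counts of few genes, and nothing is read from the shares. LEC1 reached the minimum of 10 counts in 3 wild-type and 0 mutant libraries and LEC2 in 3 and 1, so their presence among the genes tested depended on the wild-type level. The median log2 fold change was -0.06 for the activators and -0.0036 for the repressors, beside 0.0027 for all genes tested. With upper-quartile scaling the table-wide calls moved from 4106 higher and 3700 lower to 2961 higher and 5258 lower, and without composition scaling to 3119 and 4589. The calls of the members were the same under these scalings.

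**Figure D1:**
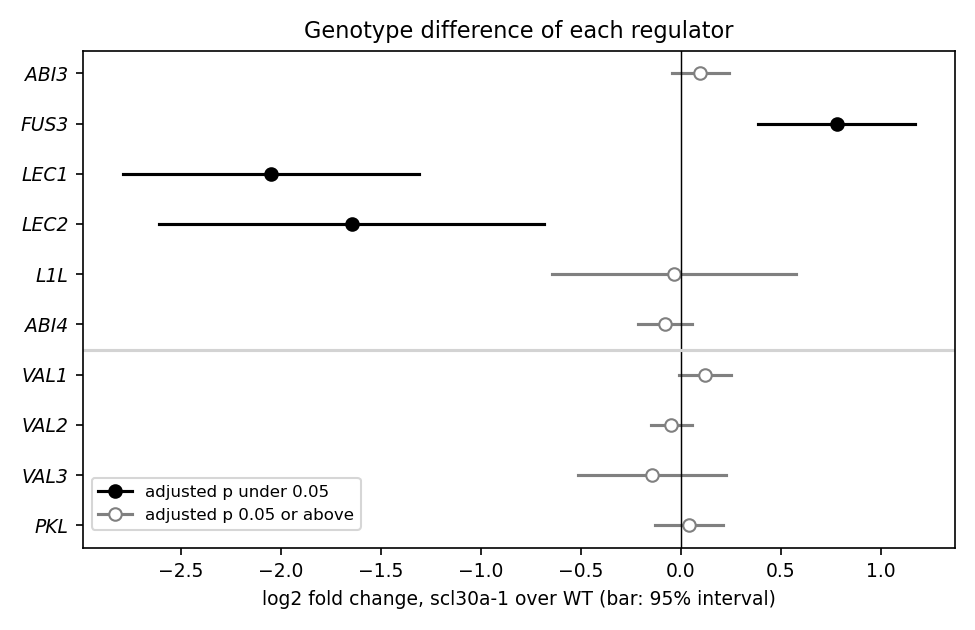
Log2 fold change of scl30a-1 over wild type for each of the 10 regulators, with its 95% interval, activators above and repressors below the grey line. Filled black points mark the 3 members called by edgeR, FUS3 at 0.78, LEC1 at -2.05 and LEC2 at -1.65; the other intervals include 0.

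ABI3 (chr3:8997370-9001185, plus strand, 6 exons) was the most abundant member in both genotypes. It had 386, 377 and 421 CPM in wild type and 429, 392 and 445 CPM in scl30a-1. The ranges overlapped, with the lowest mutant library, b, within the wild-type range. The mean went from 394 ± 23.2 to 422 ± 27.3 CPM (SD, n = 3), a log2 fold change of 0.10 (SE 0.0646, 95% interval -0.05 to 0.24, edgeR adjusted p = 0.257). The interval does not extend to a 2-fold difference in either direction. ABI4 (chr2:16796247-16797585, minus strand, 1 exon) had 6702, 6773 and 7394 counts in wild type and 6922, 6992 and 6272 in scl30a-1. Its mean of 89.1 ± 4.41 CPM in wild type and 84.3 ± 5.79 CPM in the mutant gave a log2 fold change of -0.08 (95% interval -0.21 to 0.05, edgeR adjusted p = 0.316). The libraries of the genotypes overlapped here too.

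FUS3 (chr3:9853828-9856212, minus strand), a B3 factor of storage protein and lipid accumulation, rose in the mutant from a low level. Its counts were 74, 65 and 119 in wild type and 178, 124 and 149 in scl30a-1. All 3 mutant libraries, at 2.08, 1.61 and 1.92 CPM, lay above the wild-type libraries, at 1.04, 0.848 and 1.37 CPM; 52.1% of all genes tested had genotypes that did not overlap in this way. The mean was 1.08 ± 0.264 CPM in wild type and 1.87 ± 0.239 CPM in the mutant, 1.72-fold higher (log2 fold change 0.78, SE 0.176, 95% interval 0.39 to 1.17, edgeR adjusted p = 0.00569). Its call was kept in all 17 alternative analyses.

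LEC1, LEC2 and L1L were near zero, each with an average under 30 counts in every genotype. LEC1 (chr1:7727577-7729649, minus strand), the NF-YB subunit active in early embryo development, had 26, 23 and 21 counts in wild type and 7, 6 and 4 in scl30a-1. The genotypes did not overlap, and the sums were 70 counts (exact Poisson 95% interval 54.6 to 88.4) and 17 counts (9.90 to 27.2). LEC1 fell from 0.302 ± 0.0612 to 0.0705 ± 0.0165 CPM, 4.15-fold lower, or -2.05 on the log2 scale (SE 0.332, 95% interval -2.79 to -1.31, edgeR adjusted p = 0.000782).

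LEC2 (chr1:9896867-9899876, minus strand), a B3 factor able to induce embryonic traits when expressed in seedlings, had 17, 15 and 24 counts in wild type and 11, 2 and 5 in scl30a-1. Mutant library b lay under the floor of 3 counts. In CPM the genotypes did not overlap. The mean of LEC2 fell from 0.237 ± 0.0402 CPM to 0.0730 ± 0.0519 CPM, a log2 fold change of -1.65 (SE 0.431, 95% interval -2.61 to -0.69, edgeR adjusted p = 0.0114), with sums of 56 (42.3 to 72.7) and 18 counts (10.7 to 28.4). Without mutant library a, the highest, the log2 fold change was -2.35. The Poisson intervals cover counting error only, and sequenced PCR copies are not independent molecules. In whole-seed samples, fewer cells expressing a gene and less RNA per cell cannot be told apart.

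L1L (chr5:19314778-19316169, plus strand) is the NF-YB subunit closest to LEC1 and acts later in embryo development. It had 22, 22 and 17 counts in wild type and 23, 15 and 23 in scl30a-1, with a sum of 61 in each genotype (46.7 to 78.4). The log2 fold change was -0.03 with a 95% interval from -0.65 to 0.58 (edgeR adjusted p = 0.931), which leaves room for differences of up to about that size in either direction. L1L overlaps the annotations of AT5G47660 and AT5G47680, and 11.96% of its 36-base words also occur in other transcripts, so its few counts are uncertain. Whether counting used strand is not given in the sources used here.

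**Figure D2:**
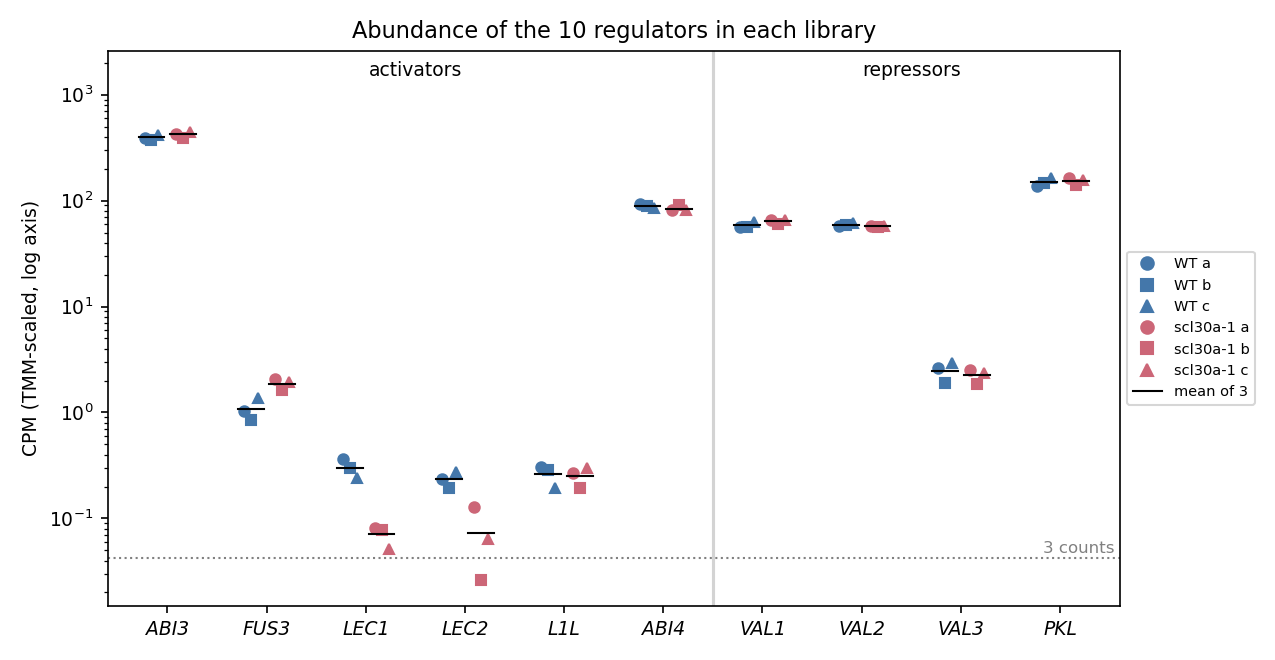
TMM-scaled CPM of the 10 regulators in each of the 6 libraries on a log axis, wild type in blue and scl30a-1 in red, with the letter of the library as the symbol and the mean of 3 as a black bar. ABI3 lies between 377 and 445 CPM in both genotypes, and the 4 repressors overlap between genotypes. The dotted line marks 3 counts in the shallowest library, 0.0424 CPM by total count without TMM scaling. In scl30a-1, LEC1 lies above it at 0.0516 to 0.0819 CPM, and LEC2 runs from 0.0260 CPM in library b, below it, to 0.129 CPM in library a.

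The repressors were present at levels that did not pass the test for a difference. VAL1 (chr2:12980428-12985277, minus strand, 12 exons), which recruits Polycomb silencing to RY elements, had 4030, 4348 and 5505 counts in wild type and 5573, 4654 and 5113 in scl30a-1. The mean was 58.8 ± 3.90 CPM in wild type and 63.9 ± 2.92 CPM in the mutant (log2 fold change 0.12, 95% interval -0.01 to 0.25, edgeR adjusted p = 0.131). VAL1 was the nearest to a call: without wild-type library c it passed at a log2 fold change of 0.16 (adjusted p = 0.0386), and without mutant library b at 0.16 (adjusted p = 0.0485).

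VAL2 (chr4:15479379-15485354, plus strand, 16 exons), which acts redundantly with VAL1, had 59.1 ± 2.19 CPM in wild type and 57.2 ± 0.846 CPM in scl30a-1 (log2 fold change -0.05, 95% interval -0.15 to 0.05, adjusted p = 0.429). VAL3 (chr4:11462969-11468679, plus strand, 9 exons), the least studied of the family, was low, with 187, 146 and 253 counts in wild type and 216, 143 and 182 in scl30a-1. Its log2 fold change of -0.14 had a 95% interval from -0.51 to 0.23 (edgeR adjusted p = 0.523). PKL (chr2:10713807-10724106, plus strand, 31 exons) had 9888, 11155 and 14231 counts in wild type and 13918, 10715 and 12275 in scl30a-1, or 149 ± 13.04 and 153 ± 12.4 CPM (log2 fold change 0.04, 95% interval -0.13 to 0.21, edgeR adjusted p = 0.696). For all 4 repressors the libraries of the genotypes overlapped. Antisense or overlapping genes are annotated at VAL2, VAL3 and PKL; 1.84% of the 36-base words of VAL2 occur elsewhere and 0% of those of the other two.

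Libraries of a genotype differed among themselves in a shared way. Mutant library b was the lowest of its genotype for 8 of the 10 members, against 38.1% of all genes tested, and wild-type library c was the highest of its genotype for 7 of 10, against 38.7%. The deviation of each library from its genotype's mean followed transcript length over 18648 genes, with Spearman coefficients, in the order a, b, c, of -0.499, -0.0405 and 0.421 for Col-0 and 0.185, -0.376 and 0.337 for the mutant. The part of this trend in the members' values was tested only by removing the trend with length and GC content, an analysis added after seeing the data. FUS3 then stood at 0.79, LEC1 at -2.07 and LEC2 at -1.66, all called. ABI4 at -0.09 (edgeR adjusted p = 0.0495) and VAL1 at 0.12 (adjusted p = 0.0216) also passed in that analysis.

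Levels of different genes were compared per transcript length, as RPKM recomputed from the counts with the length of the longest RefSeq transcript. ABI3 had 129 ± 9.19 RPKM in wild type, above 96.9% of the 23422 genes with a value above 0. ABI4 followed at 67.6 ± 2.83 and PKL at 33.5 ± 3.33 RPKM. VAL1 at 17.6 ± 1.39 and VAL2 at 16.6 ± 0.814 RPKM overlapped between libraries. VAL3, at 0.801 to 1.25 RPKM, and FUS3, at 0.533 to 0.880 RPKM, also overlapped. LEC1 at 0.317 ± 0.0615, L1L at 0.226 ± 0.0491 and LEC2 at 0.183 ± 0.0331 RPKM were the lowest, each overlapping its neighbour in this order, and LEC2 lay above 23.4% of genes. In scl30a-1, FUS3 had the higher mean of the pair, 1.15 ± 0.172 RPKM against 0.923 ± 0.162 for VAL3, with ranges that still overlapped. LEC1 at 0.0715 ± 0.0164 and LEC2 at 0.0551 ± 0.0397 RPKM overlapped at the bottom, and L1L at 0.212 ± 0.0481 RPKM lay above both in every mutant library.

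**Figure D3:**
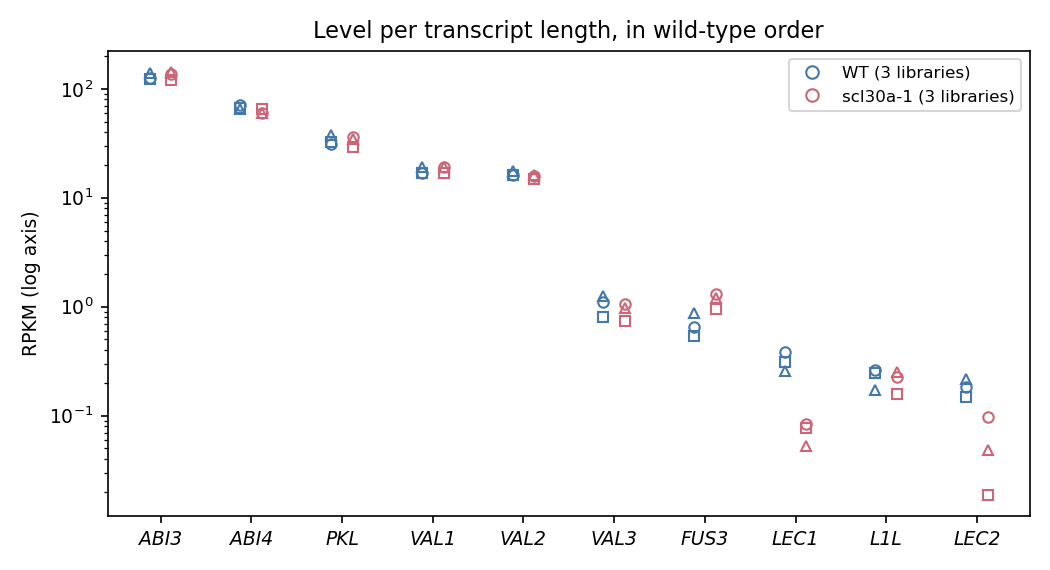
RPKM of the 10 regulators, computed from the counts, on a log axis, ordered by the wild-type mean, with 3 wild-type (blue) and 3 scl30a-1 (red) libraries as open symbols. ABI3, ABI4, PKL, VAL1 and VAL2 lie at 14.9 RPKM or more in every library and the other members at 1.30 RPKM or less.

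ABI3 and ABI4 together made up 99.1 to 99.3% of the activators' summed RPKM in every library. The activators' sum was 3.05, 2.86 and 2.74 times that of the repressors in the Col-0 libraries and 2.78, 3.01 and 2.87 times in the mutant ones, so the genotypes overlapped. ABI3 over VAL1, a ratio of a B3 activator to a B3 repressor, was 7.49, 7.27 and 7.27 in Col-0 against 7.19, 7.09 and 7.40 in the mutant, also overlapping. ABI3 over FUS3 was 192, 229 and 158 in Col-0 against 106, 125 and 120 in the mutant, without overlap. As ABI3 was not called, this ratio largely restates the difference of FUS3.

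The partners and upstream genes of the activators included a bZIP factor at a very low level. Of 22 listed genes, 19 were tested, and 7 were called higher and 0 lower, with a median log2 fold change of 0.10; with upper-quartile scaling the split was 6 higher and 2 lower. Of all genes tested, 41.7% were called in either direction and 21.9% higher. BZIP67, which works with LEC1 and L1L in the embryo, had 11, 11 and 13 counts in wild type and 52, 47 and 55 in scl30a-1. It was 4.28-fold higher in the mutant by edgeR (adjusted p = 3.52e-05), the opposite direction to LEC1. ABI5, the bZIP factor that acts with ABI3 in abscisic acid responses, had 78.1, 80.3 and 80.7 CPM in wild type and 138, 144 and 141 CPM in the mutant. By edgeR it rose by 0.82 on the log2 scale (adjusted p = 3.25e-07). BZIP10, an ABI3-interacting bZIP factor, rose by 0.34, AGL18, a MADS-domain factor, by 0.42, and AIP2, a ubiquitin ligase that marks ABI3 for degradation, by 0.25. SUA, a splicing factor known to control an intron of ABI3, had 78.1, 78.4 and 86.9 CPM in Col-0 against 83.6, 76.5 and 82.5 CPM in the mutant and was not called. The gene-level counts do not separate spliced forms of ABI3. BZIP53 had no value in the table, and MYB115 had 0 counts in every library.

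Other repressors of the seed programme, most of them chromatin proteins, were called about as often as all genes tested, 10 of 22 beside 41.7%, and in both directions. Of 24 listed, 22 were tested, and 7 were called higher and 3 lower, with a median of 0.07; the split became 5 and 6 with upper-quartile scaling and 5 and 4 without composition scaling. RING1A and RING1B are among the RING-finger subunits of Polycomb repressive complex 1. They had 18.4 ± 1.07 and 15.8 ± 0.698 CPM in wild type and 28.0 ± 2.06 and 24.0 ± 1.76 CPM in the mutant. RING1A rose by 0.60 and RING1B by 0.61 on the log2 scale (edgeR adjusted p = 6.84e-05 and 5.34e-05). BMI1A, another RING-finger subunit of that complex, fell by 0.21 (edgeR adjusted p = 0.0105). BMI1B, its relative, was not called at 0.12 (edgeR adjusted p = 0.0929). The methyltransferases of Polycomb repressive complex 2 moved apart: CLF fell from 52.8 ± 2.15 to 39.0 ± 2.42 CPM (log2 fold change -0.44), while SWN rose from 46.2 ± 3.05 to 56.4 ± 2.44 CPM (0.29). LHP1, a chromodomain protein that binds the Polycomb mark, rose by 0.30. The calls of RING1A, RING1B, CLF, SWN and LHP1 were kept in all 17 alternative analyses.

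Known target genes of ABI3, FUS3, LEC1 and LEC2 rose in scl30a-1, while ABI3, the activator with the highest level, did not pass the test. Of 25 listed, 24 were tested, and 21 were called higher and 1 lower, with a median log2 fold change of 2.49; 20 were at least 2-fold higher and called, against 3.16% of all genes tested. The list holds storage protein, oleosin and late embryogenesis genes whose rise was known when it was drawn up, so it is no independent evidence of direction. The summed RPKM of the targets was 1902, 1645 and 1602 in Col-0 against 10142, 10699 and 9516 in the mutant. Per unit of ABI3 this was 15.1, 13.5 and 11.5 in Col-0 against 73.7, 88.8 and 66.6 in the mutant. As ABI3 was not called, this ratio largely restates the difference of the sum, in which the most abundant targets weigh most.

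SESA1 had the highest fold change of the list, from 9.94 ± 2.24 to 179 ± 21.5 CPM, 18.1-fold. The 5 called targets with the smallest p were SGR2, SESA5, SESA4, CRC and PER1. SESA5 and SESA4, both 2S albumins, rose by 3.47 and 3.32 on the log2 scale, and CRC, a 12S cruciferin, by 3.02. PER1, a seed peroxiredoxin, rose by 2.97 and SGR2, a chlorophyll degradation gene regulated by ABI3, by 1.53. HSFA9, a heat shock factor downstream of ABI3, had 50, 27 and 62 counts in wild type and 305, 289 and 279 in the mutant (log2 fold change 2.62). OLEO1, an oil body oleosin, rose by 2.59 and EM6, a late embryogenesis protein, by 2.09. The smallest edgeR adjusted p among these genes was 1.14e-08 for SGR2 and the largest 2.59e-06 for HSFA9. FAD3, the linoleate desaturase, was the 1 listed gene called lower, from 491 ± 12.7 to 411 ± 12.2 CPM (log2 fold change -0.26, adjusted p = 0.00253). SUS2, a sucrose synthase, at -0.23 and YUC4, an auxin synthesis gene downstream of LEC2, at -0.38 were not called; SUS2 was called lower in 4 of 17 alternatives.

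**Figure D4:**
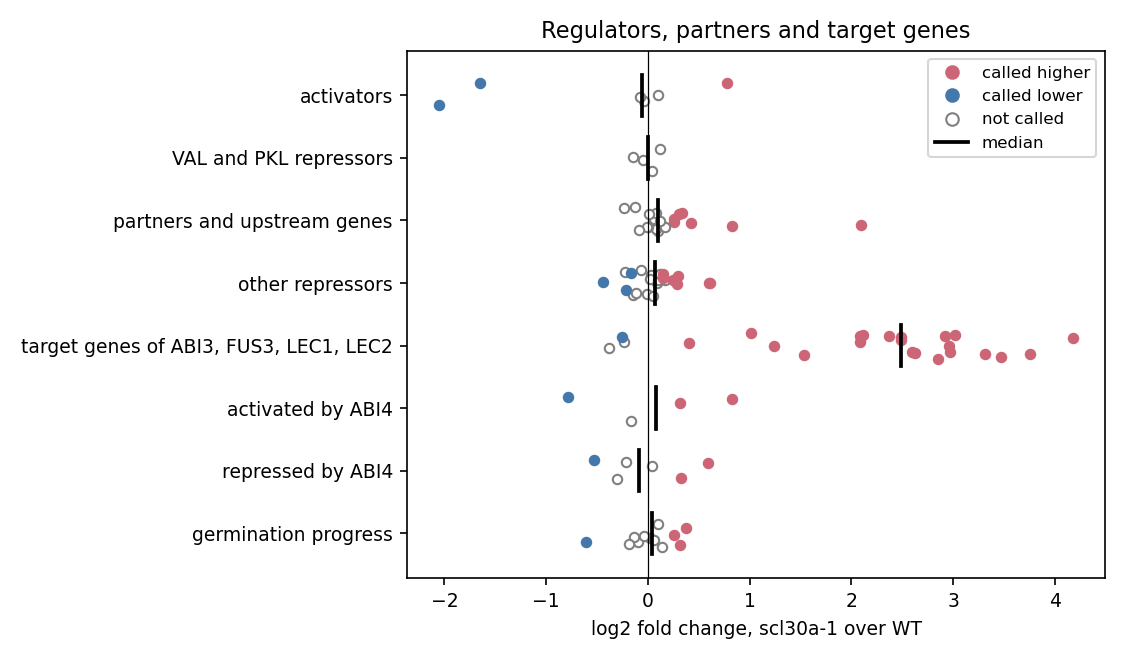
Log2 fold change of scl30a-1 over wild type for each tested gene of the regulators and of the related lists, red where called higher, blue where called lower and open where not called, with the list's median as a black bar. The target genes of ABI3, FUS3, LEC1 and LEC2 have a median of 2.49, while the medians of the other lists lie between -0.09 and 0.10.

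The RY core was present upstream of 14 of the 25 targets (56.0%) and the ABRE core upstream of 13 (52.0%), against 8.51% and 23.1% of all promoters. The listed genes are known targets of factors that bind the RY element, so their share with it is no independent result. All 14 targets with an RY core were called higher, with a median log2 fold change of 2.88 and a range of 0.41 to 4.18. Of the 10 tested without it, 7 were called higher and 1 lower, with a median of 1.67. The list was drawn up with the rise of its storage protein and oleosin genes known, so this split is no independent evidence on the RY core. Leaving out the listed targets, 25.7% of the 1323 tested genes with an RY core were called higher and 22.5% lower, beside 22.03% and 19.6% of the 16726 without it. At least 2-fold higher and called were 8.24% of genes with the RY core, 2.69% of genes without it and 17.4% of the 363 genes with both cores. The excess was not particular to the RY core. This share was 6.18% of the 4255 genes with the ABRE core and 8.95% of the 1397 with the G-box. At any size, 26.7% of genes with the ABRE core were called higher and 20.7% lower, and 32.4% and 20.3% of those with the G-box. Genes at least 2-fold lower were not counted. The median log2 fold change was -0.0006 with the RY core, 0.0056 without it and 0.0827 with both cores. A median does not describe the genes at either extreme. These shares are descriptions over genes that share motifs by base composition and family, and no test was made.

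**Figure D5:**
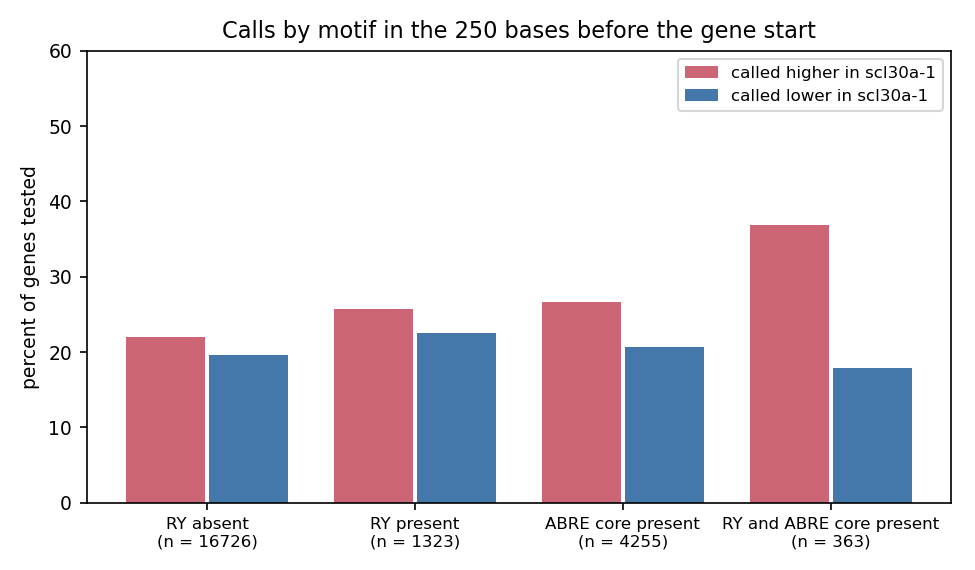
Percent of tested genes called higher (red) and lower (blue) in scl30a-1 by motif in the 250 bases before the gene start, without the listed target genes; n is the number of genes. Genes with both the RY and the ABRE core were called higher in 36.9% and lower in 17.9%.

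Targets of ABI4 were called in both directions, 3 of 4 tested in the activated and 3 of 6 in the repressed list, beside 41.7% of all genes; nothing is read from counts this small. Among 5 genes described as activated by ABI4, ABI5 (0.82) and DGAT1, an oil synthesis enzyme (0.32), rose, and NCED6, an abscisic acid synthesis gene, fell by 0.78 on the log2 scale. SBE2.2, a starch branching enzyme, at -0.17 was not called here but was called lower in 7 of 17 alternatives, and GA2OX7, a gibberellin oxidase, had 0 counts throughout. Among 7 described as repressed by it, AOX1A, the mitochondrial alternative oxidase (0.59), and VTC2, of ascorbate synthesis (0.33), rose, while CYP707A1, which breaks down abscisic acid, fell by 0.53. CYP707A2 at 0.04, ARR7 at -0.31 and ARR15 at -0.22 were not called, and ARR6, like both of these a cytokinin response regulator, had 7 to 18 counts and was not tested.

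In the NF-YB family, LEC1 had the only difference of more than 2-fold among the genes tested. Of 10 members, 7 were tested, with 1 called higher and 2 lower, LEC1 included. NF-YB1 rose by 0.21 (edgeR adjusted p = 0.0105), a call lost with upper-quartile scaling, and NF-YB10 fell by 0.24 (adjusted p = 0.00532). NF-YB2 at 0.11, NF-YB3 at -0.08, NF-YB8 at -0.06 and L1L were not called; NF-YB4 and NF-YB7 had 0 counts in every library and NF-YB5 at most 3.

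Over the 6 libraries, the genes whose log2 CPM followed that of LEC1 most closely were AT5G42100 (Pearson r 0.9993), NDK4 (0.9984) and BHLH115 (0.9983). Their log2 fold changes were -0.21, -0.47 and -0.26. Of 16861 genes with an average of at least 50 counts, 740 reached 0.95 or more. The 6 libraries fall into 2 genotypes and LEC1 had only 4 to 26 counts, so such correlations largely restate the genotype difference. They do not show shared regulation.

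Markers of other seed parts and of leaf were read beside these results. The 3 endosperm markers summed to 1606 to 1701 CPM in wild type and 2281 to 2358 CPM in scl30a-1. EPR1, an extensin-like protein of the endosperm, rose by 1.66 and MAN7, a mannanase, by 0.51 on the log2 scale, and EXPA2, an expansin, at 0.12 was not called. The 5 markers of storing seeds, all in the target list above, were all called higher, with a summed level of at most 1375 CPM in wild type and at least 8592 CPM in the mutant. The seed coat markers TT10, BAN and TT12 were at 0 in all libraries. The 4 leaf markers summed to 456 to 524 CPM in wild type and 395 to 503 CPM in the mutant; RBCS2B fell by 1.86 and RBCS3B by 1.23, RBCS1A at -0.12 was not called and LHCB2.1 had 0 to 4 counts. Of 12 genes that mark the progress of germination, 3 were called higher and 1 lower, with a median of 0.04, and 3 and 3 without composition scaling, with a median of -0.0086. These 4 of 12 are no more than the 41.7% of all genes. EXPA8, an expansin, rose by 0.31, GASA6, a gibberellin-regulated gene, by 0.38 and GA3OX1, of gibberellin synthesis, by 0.26, while TUB1, a tubulin, fell by 0.61. The part of seed composition or germination stage in the values of FUS3, LEC1, LEC2 and the targets was not tested. No batch is named in the labels, so a batch that followed genotype cannot be told apart from it.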

How the data were processed

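The deposited table gives whole-number read counts per gene for 6 libraries. The counts were used as the authors deposited them. A further 6 columns, with length-normalized values, were not used here. Levels between genes were instead computed from the counts as RPKM, per kilobase of the longest RefSeq transcript and total count, for the 31772 genes with a length. The build was TAIR10, per the submitters' processing notes, and the aligner, counter and strand setting are not given in the sources used here. Of 33602 genes, 1213 had no value, 8761 had 0 counts everywhere and 18736 passed edgeR's filterByExpr with a minimum of 10 counts.

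Genotypes were compared with edgeR 4.0.16 (R 4.3.3), TMM scaling and the quasi-likelihood F test on genotype alone, with Benjamini-Hochberg adjustment over all genes tested and a threshold of 0.05. The procedure was tested on simulated data. Intervals are 95% intervals of the fitted log2 fold change. With 3 libraries against 3, an exact permutation test of a single gene could not go below p = 0.1, so none was used. DESeq2 1.42.0, limma 3.58.1 and the other settings below were alternatives. The members, the lists and their sizes were chosen with earlier results of these data known. Named were all members and, of each list, the 5 called genes with the smallest p or all genes of lists of 10 or fewer. SESA1, OLEO1, HSFA9, EM6, FAD3, SUS2, YUC4, SUA, BMI1A and BMI1B were added for their sequence, role or call after their values were seen. Column letters were mapped to genotype only. Coordinates are those of the RefSeq annotation of TAIR10.1, read with Python 3.11.15.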

Additional observations from a re-analysis of the deposited data

How the results depend on the processing

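FUS3, LEC1 and LEC2 kept their direction and call in all 17 alternatives. The alternatives reuse the same counts and are not independent of each other. In the main fit LEC1 and LEC2 passed the filter through their wild-type counts. FUS3 ranged from 0.35 to 0.98 on the log2 scale (adjusted p 0.000252 to 0.0296), LEC1 from -2.21 to -0.30 (0.000166 to 0.00464) and LEC2 from -2.35 to -0.17 (0.00336 to 0.0390), the smallest sizes with limma on log2 of RPKM plus 1. ABI3, at 0.03 to 0.15, and VAL2 and VAL3 were called in none. Leaving out a library moved L1L between -0.24 and 0.12 and VAL1 between 0.0863 and 0.163, and PKL between -0.0110 and 0.106, so that the number of repressors called was 0 to 1. PKL was -0.0059 without composition scaling, -0.0269 with upper-quartile scaling, and -0.0065 and -0.0063 with limma on RPKM plus 0.1 and plus 1. With the length and GC trend removed, ABI4 at -0.0922 and VAL1 at 0.115 were called, with 1 repressor and 7 germination genes called. Of 48 genes named from the lists, BMI1A and BMI1B not included, 36 were called. In all alternatives 34 of these stayed so, and none reversed. NF-YB1 lost its call with upper-quartile scaling (0.14, adjusted p = 0.0554), and GA3OX1 with limma on RPKM plus 1 and without mutant library c. SBE2.2 gained a call in 7 alternatives, among them DESeq2 size factors, the DESeq2 test and both other scalings. SUS2 did so in 4, with upper-quartile scaling, with the block by letter, without mutant library a and with the trend removed. RBCS1A did so without mutant library b (-0.23). Among genes not called, SUA without a library ranged from -0.0321 to 0.0353, ARR7 from -0.50 to 0.0094, ARR15 from -0.40 to 0.0735, NF-YB3 from -0.14 to 0.0056 and CYP707A2 from -0.0267 to 0.125. CYP707A2 was -0.0064 without composition scaling, -0.0272 with upper-quartile scaling, and -0.0039 and -0.0038 with limma on RPKM plus 0.1 and plus 1. The total of genes called ranged from 5825 to 9329. The causes were not tested.

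The labels do not say whether the column letters pair the libraries. Deviations of same-letter libraries correlated at -0.0772, 0.238 and 0.248 for a, b and c. Those of libraries with different letters correlated at -0.402 to 0.2325, so these values do not settle whether the letters are pairs. With a replicate block by letter, 8940 genes were called, FUS3 was 0.79, LEC1 -2.08 and LEC2 -1.66, and no member's call changed. Low counts limit LEC1, LEC2 and L1L, whose intervals are the widest among the members.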
